A study of Mus musculus with 4 samples.

Results

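The accessible sites described here were 582 of the 4932 sites that the authors' deposited table of narrow peaks lists as different between aged and young long-term hematopoietic stem cells (LT-HSCs). They were selected on 1 measured value, the loss, which is the mean log2 level of the young libraries minus that of the aged libraries, at a minimum of 0.6. A loss of 0.6 corresponds to an aged level of 66.0% of the young level, and the largest loss, 1.70, to 30.8%. The members made up 11.8% of the listed sites, and the listed sites in turn made up 17.7% of the roughly 27801 sites that the ratio of false discovery rate (FDR) to p-value in the table implies were tested. Of the 4350 remaining sites, 4323 had a smaller loss and 27 had a gain. Because the loss chose the members, their loss, their FDR and every comparison of the same young and aged libraries are descriptions of the selection and carry no test.

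All cells were LT-HSCs, labelled hematopoietic stem cells, of wild-type C57BL/6 mice. The young group was 4 to 5 months old and the aged group 20 to 22 months old, with 2 biological replicates in each. For each library 25000 sorted cells were tagmented for 1 h at 37 °C, amplified with 11 to 12 PCR cycles and size-selected to 150 to 1000 bp. ATAC-seq reads accessibility from where the Tn5 transposase can insert adapters into DNA. The labels do not state whether mice were pooled, their sex, or the markers used for the sort. In such bulk libraries, fewer cells with an open site and a less open site in each cell cannot be told apart.

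LT-HSCs are the rare bone marrow cells that renew themselves over long periods and give rise to all blood lineages. With age the compartment expands in mice and its output shifts toward myeloid cells. Accessible DNA outside gene starts often marks enhancers, which differ more between cell types than gene starts do, while the bodies and 3′ flanks of strongly transcribed genes can also become accessible as polymerase passes through them.

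The libraries held 106186 and 126292 distinct narrow peaks in the young replicates 1 and 2, and 116700 and 133131 in the aged replicates. Read depth is unknown, because the files hold peaks and no counts. All 12 LT-HSC marker genes had a peak within 1 kb of a gene end in every library. Of markers of other blood cells, 1 to 2 of 6 granulocyte and monocyte genes, 3 to 4 of 5 B cell genes, 3 of 5 T cell genes and 3 to 4 of 5 erythroid genes had a peak in a library. Their part in the losses was not tested.

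Sequence was at hand only for gene starts. In the RefSeq promoter table of build GRCm38.p6, a member covered the whole window from 250 bases before to 50 bases after a gene start in 68 of 21238 windows, which belonged to 65 genes. The windows below are those of the 3 genes with the largest losses at their start, of the member with the highest level (H2ac6) and of Tmem121, to which 3 members lay nearest. F10 encodes coagulation factor X (chr8:13037058-13037357, + strand), Arsj an arylsulfatase (chr3:126363602-126363901, + strand), and Wdr86 a WD repeat protein (chr5:24730631-24730930, − strand). H2ac6 is a core histone H2A gene of a cluster of near-identical copies (chr13:23683910-23684209, − strand), so reads there may be shared among copies, and Tmem121 encodes a membrane protein (chr12:113185653-113185952, + strand). Each is printed 5′ to 3′ along the gene, and capitals mark the matches named after it.
F10: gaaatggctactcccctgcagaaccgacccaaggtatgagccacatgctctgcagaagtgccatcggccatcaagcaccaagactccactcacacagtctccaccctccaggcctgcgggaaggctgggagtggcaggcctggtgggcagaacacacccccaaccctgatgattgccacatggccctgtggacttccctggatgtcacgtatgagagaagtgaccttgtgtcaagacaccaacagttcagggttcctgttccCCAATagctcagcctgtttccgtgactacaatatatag
Arsj: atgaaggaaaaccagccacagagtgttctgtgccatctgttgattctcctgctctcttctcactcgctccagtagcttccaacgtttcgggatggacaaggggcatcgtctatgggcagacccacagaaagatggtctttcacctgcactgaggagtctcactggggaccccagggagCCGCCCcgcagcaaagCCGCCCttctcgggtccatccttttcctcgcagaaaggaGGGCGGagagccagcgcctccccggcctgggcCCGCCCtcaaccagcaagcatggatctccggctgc
Wdr86: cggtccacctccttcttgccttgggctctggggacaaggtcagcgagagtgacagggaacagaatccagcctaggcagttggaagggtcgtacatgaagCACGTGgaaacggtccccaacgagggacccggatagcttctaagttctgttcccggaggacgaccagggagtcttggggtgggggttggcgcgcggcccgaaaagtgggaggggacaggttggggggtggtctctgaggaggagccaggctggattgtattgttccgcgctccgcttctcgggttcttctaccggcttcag
H2ac6: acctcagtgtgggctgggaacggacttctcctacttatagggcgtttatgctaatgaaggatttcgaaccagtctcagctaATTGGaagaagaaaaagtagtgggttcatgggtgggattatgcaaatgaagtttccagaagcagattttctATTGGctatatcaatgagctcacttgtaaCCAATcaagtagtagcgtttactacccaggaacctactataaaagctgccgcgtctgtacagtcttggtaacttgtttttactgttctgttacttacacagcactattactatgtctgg
Tmem121: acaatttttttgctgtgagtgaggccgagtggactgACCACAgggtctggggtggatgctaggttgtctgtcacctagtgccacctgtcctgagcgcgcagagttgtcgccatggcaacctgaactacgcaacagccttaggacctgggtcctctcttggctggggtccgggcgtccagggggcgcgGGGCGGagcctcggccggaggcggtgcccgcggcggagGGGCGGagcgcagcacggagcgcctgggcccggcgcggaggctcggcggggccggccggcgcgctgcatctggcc

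The capitals mark a CCAAT match in F10, matches of the GC box, with the letters GGGCGG, in Arsj, an E-box match in Wdr86, whose letters are CACGTG, and CCAAT matches in H2ac6. In Tmem121 they mark GC boxes and a RUNX match, whose letters are TGTGGT. Motifs were read on both strands and could overlap. A GC box was found in 40 of 68 member windows (58.8%), in 71.5% of the 3141 windows covered by a remaining site and in 46.2% of all windows. A CCAAT match was about as frequent in all of these, at 39.7%, 41.4% and 38.2%. The ETS letters CCGGAAGT stood in 2 member windows (2.94%), in 9.55% of the remaining windows and in 5.15% of all. The AP-1 letters TGANTCA were present in 2.94% of member windows, 3.09% of remaining windows and 6.99% of all windows. The cyclic AMP response letters TGACGTCA were found in 1 member window, the GATA factor letters AGATAA in 5, the E-box in 4, the RUNX letters in 11 and the CArG box in 1, which are 1.47%, 7.35%, 5.88%, 16.2% and 1.47%. Under remaining sites these shares were 3.44%, 4.36%, 11.0%, 10.4% and 1.31%, and over all windows 2.24%, 9.65%, 7.84%, 15.0% and 1.53%. The RUNX share under members was near that over all windows, and in the lowest level group it was 20.8% under members and 19.2% under remaining sites. In that group the GC box share was not lower under members, at 56.25% (27 of 48 windows) against 53.4% (39 of 73). The ETS share there was 4.17% under members and 11.0% under remaining sites. CpG density had a median of 5.83 per 100 bases under members, 8 under remaining sites and 4.33 over all windows. Among sites in the lowest level group it was 5.33 under members and 5.33 under remaining sites. A match is a description of the letters and not evidence of a bound factor.

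Members were weak relative to the other listed sites. In the authors' deposited table their median level was 8.02 in young and 7.29 in aged libraries, on a log2 scale of normalised reads. Their mean level over all libraries had a median of 7.69 and ranged from 7.25, the lowest level listed, to 10.58, against a median of 9.17 for the remaining sites. The median loss of the members was 0.68, and FDR ranged from 4.78e-10 to 0.0498. Across the 4932 listed sites loss and level had a Spearman correlation of -0.81, given as a description, since both are made from the same reads. When the sites were divided into 5 groups of about equal size by mean level, 498 of the 987 sites of the lowest level group (50.5%) were members, 72 of 993 in the next (7.25%), and 9, 2 and 1 in the upper 3. The smallest loss listed in the authors' deposited table was 0.43 in the lowest level group and 0.22 in the highest, so weak sites were listed only with larger losses. The main comparisons with the remaining sites are therefore also given within the lowest level group.

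**Figure D1:**
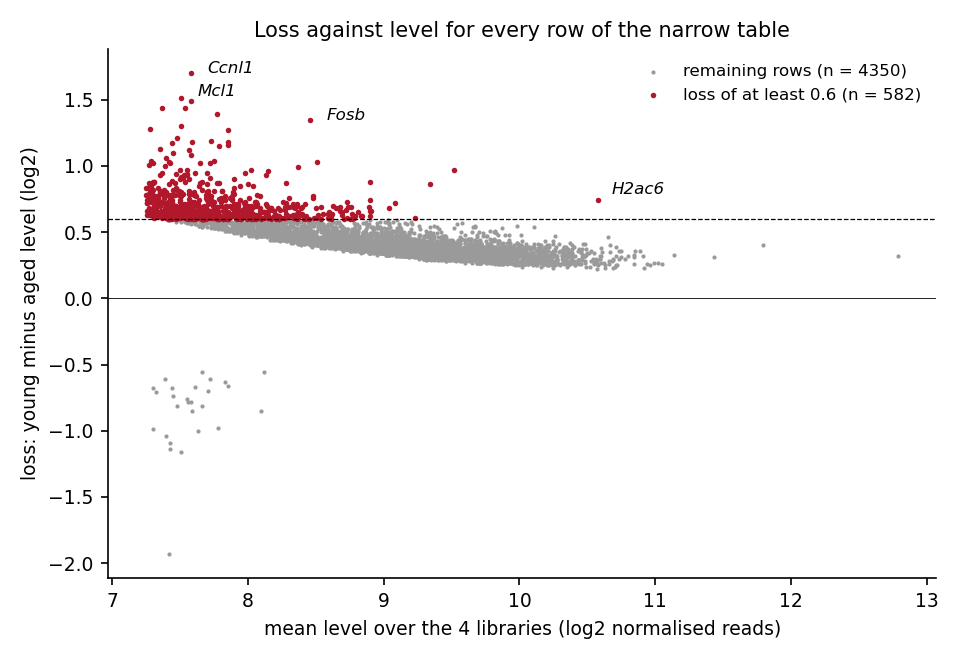
Loss (young minus aged level, log2, vertical axis) against the mean level over the 4 libraries (log2 normalised reads, horizontal axis) for each of the 4932 sites, with the 582 members in red and the remaining 4350 in grey. The dashed line is the threshold of 0.6, members crowd at the low end of the level scale, and the lower edge of the listed losses declines as level rises.

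Most members lay away from gene ends. The midpoint of a member lay no more than 1 kb from the start or the end of a protein-coding gene in 106 of 582 cases (18.2%, exact 95% binomial interval 15.2 to 21.6), against 2696 of 4345 remaining sites on chromosomes with genes (62.0%, 60.6 to 63.5). The median distance to the nearest gene end was 12107 bp for members and 454 bp for remaining sites, and 127 members (21.8%) were over 50 kb away, against 7.94%. Within the lowest level group the contrast was much smaller, with 80 of 498 members (16.1%, 12.9 to 19.6) and 106 of 488 remaining sites (21.7%, 18.1 to 25.6) at a gene end. These intervals cover counting error over sites only.

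By class of location, 264 members (45.4%) were inside a gene and over 1 kb from its ends, 191 (32.8%) were outside genes, 74 (12.7%) were within 1 kb of an annotated gene start, including starts inside a gene's span, and 35 (6.01%) were at another gene end. The remaining sites were distributed differently, with 57.9% at a start, 16.6% inside and 12.0% outside. A further 18 members (3.09%) lay within 1 kb of the far (3′) end of a gene of known strand, against 28 remaining sites (0.644%). In the lowest level group the far-end share was 3.41% of members and 2.05% of remaining sites, with overlapping intervals (2.0 to 5.41 and 0.987 to 3.74), while starts made up 11.2% and 17.8%. Members inside a single gene of known strand lay at a median of 0.505 of the way from its start to its far end (202 sites), and remaining sites at 0.444 (501 sites). In the lowest level group these positions were closer, at 0.494 (177 sites) and 0.466 (168 sites). The genes holding all 264 members and 721 remaining sites of the inside class had median lengths of 108 kb and 94.3 kb. In the lowest level group these were 113 kb and 101 kb. The median over all protein-coding genes was 17.2 kb, but longer genes have more room for an inside site. That gap is therefore built in, and nothing is read from it.

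**Figure D2:**
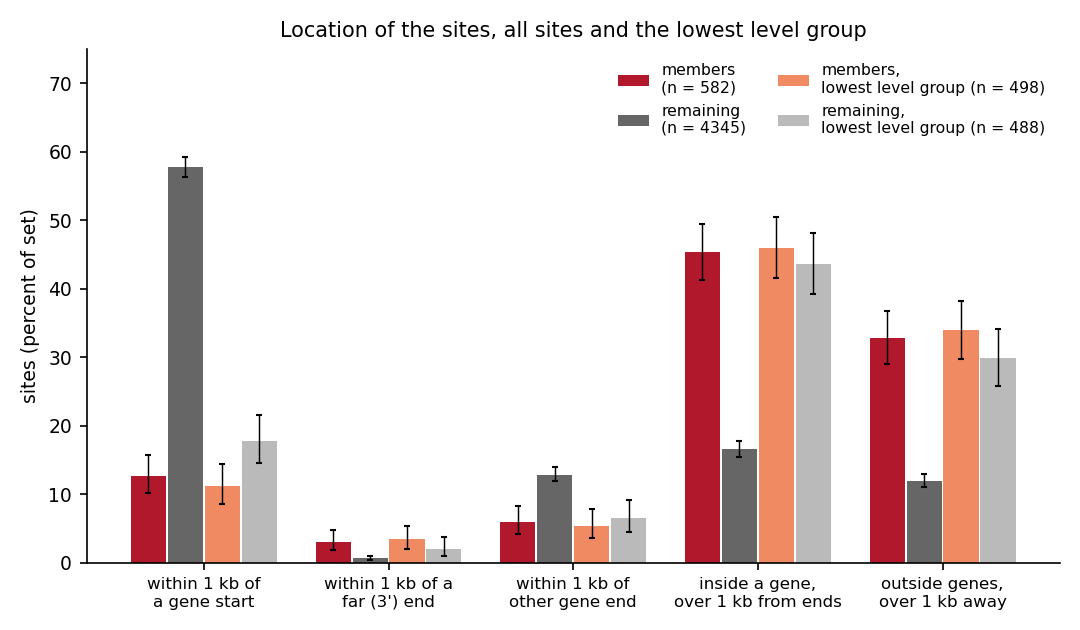
Share of sites (percent, vertical axis) in each location class for members and remaining sites, over all levels (dark bars) and within the lowest level group (light bars), with exact 95% binomial intervals as error bars. The excess of starts among the remaining sites, 57.9% against 12.7%, shrinks to 17.8% against 11.2% within the lowest level group.

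Among the 32 members with a loss of at least 1 were sites at Ccnl1, Mcl1, Srsf5, Fosb and Fos. These are genes of splicing, cell survival and the AP-1 factor, grouped after their values were seen. The sites lay in the gene body or beside a gene end other than the start. Sites at genes outside these groups, such as Tprg (1.21) and Csmd1 (1.19), had losses above that of Fos (1.03). In the authors' deposited table the largest loss was at a 701 bp site inside Ccnl1 (chr3:65955997-65956697), which encodes cyclin L1, a regulator of pre-mRNA splicing; its level was 8.20 in young and 6.50 in aged libraries, a loss of 1.70. To compare libraries, each site was ranked by the −log10 p of its peak among the 113950 regions that 2 or more libraries shared, on a percentile scale on which 100 is the strongest and a region without a peak shares the lowest rank (8.29 and 5.74 in the young, 5.99 and 5.14 in the aged replicates). The Ccnl1 site ranked at 32.0 and 19.02 in the young libraries, and neither aged library had a peak there. The second-largest loss, 1.51 in the authors' deposited table, was at chr3:95662360-95663192, inside Mcl1 and 403 bp from its far end. Mcl1 is an anti-apoptotic BCL2 family member on which HSC survival depends. This site ranked at 36.0 and 22.8 in the young libraries and again lacked a peak in both aged ones.

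The same pattern of 2 young peaks and no aged peak was found at Fosb. At Fosb, which encodes an AP-1 subunit, a 756 bp site inside the gene (chr7:19304932-19305687) went from 8.98 to 7.63 in the authors' deposited table, a loss of 1.35, with young ranks of 27.7 and 33.8. Thus these sites without an aged peak, at Ccnl1, Mcl1 and Fosb, were of low rank in young cells already.

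A site at chr12:80951074-80952744 lay within 5 kb downstream of the far end of Srsf5, an SR splicing factor gene. Its nearest gene was Slc10a1, a bile acid transporter gene 1276 bp away. Its loss was 1.49 in the authors' deposited table, and its ranks were 32.1 and 28.8 in young against 15.9 and 20.5 in aged libraries, so the ages did not overlap. Fos, the partner of JUN in AP-1, had a member 369 bp beyond its far end (chr12:85477132-85478154) with a loss of 1.03 in the authors' deposited table. Its FDR there was 0.0379, the highest of the 32 members with a loss of at least 1. The Fos site ranked at 48.4 and 43.7 in young against 14.9 and 29.6 in aged libraries, again without overlap. The gene starts of Srsf5 and Fosb were in the table with losses of 0.35 and 0.34, below the threshold.

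A pair of members lay within 5 kb downstream of Eef1a1, the translation elongation factor gene (chr9:78473460-78474616 and chr9:78475148-78476321), with losses of 1.02 and 0.74 in the authors' deposited table; their nearest gene was Mto1. The first ranked at 23.1 and 34.1 in young against 34.4 and 29.8 in aged libraries, so its ranks were not lower in aged cells. Sik1, a salt-inducible kinase gene, had a site 788 bp outside one end with a loss of 1.04 and another 2141 bp away with 0.91 in the authors' deposited table. The first Sik1 site ranked at 45.2 and 47.2 in young against 19.7 and 19.8 in aged libraries, the second at 27.8 and 22.5 against 22.9 and 25.3, which overlap. Members within 5 kb downstream of Ftl1 (ferritin light chain; Bax lies there too) and of Eif1 (an initiation factor) had losses of 0.76 and 0.79 in the authors' deposited table. The widest member, 4029 bp, lay within 5 kb downstream of Hspa5, the endoplasmic reticulum chaperone gene, inside Rabepk, with a loss of 0.61 in the authors' deposited table.

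Of the 32 members with a loss of at least 1, 5 (15.6%) were at a far end and 1 was at a start, that of F10. The 5 were at Mcl1, Ctla2a, Ccnl1, Fos and Mto1. Beyond a far end and within 5 kb of it lay 7 of the 32 (21.9%, exact binomial interval 9.28 to 40.0). This compares with 46 of all 582 members (7.90%, 5.84 to 10.4) and 8.22% of the remaining sites. The 7 included the F10 site, at the start of F10 but beyond the far end of F7. They also included the Ctla2a site, inside Ctla2a and counted only as lying beyond the far end of Tpbpa. Ctla2a belongs to a family with near-identical copies, so its site, with a loss of 1.39 in the authors' deposited table and a peak in 3 libraries, is uncertain.

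**Figure D3:**
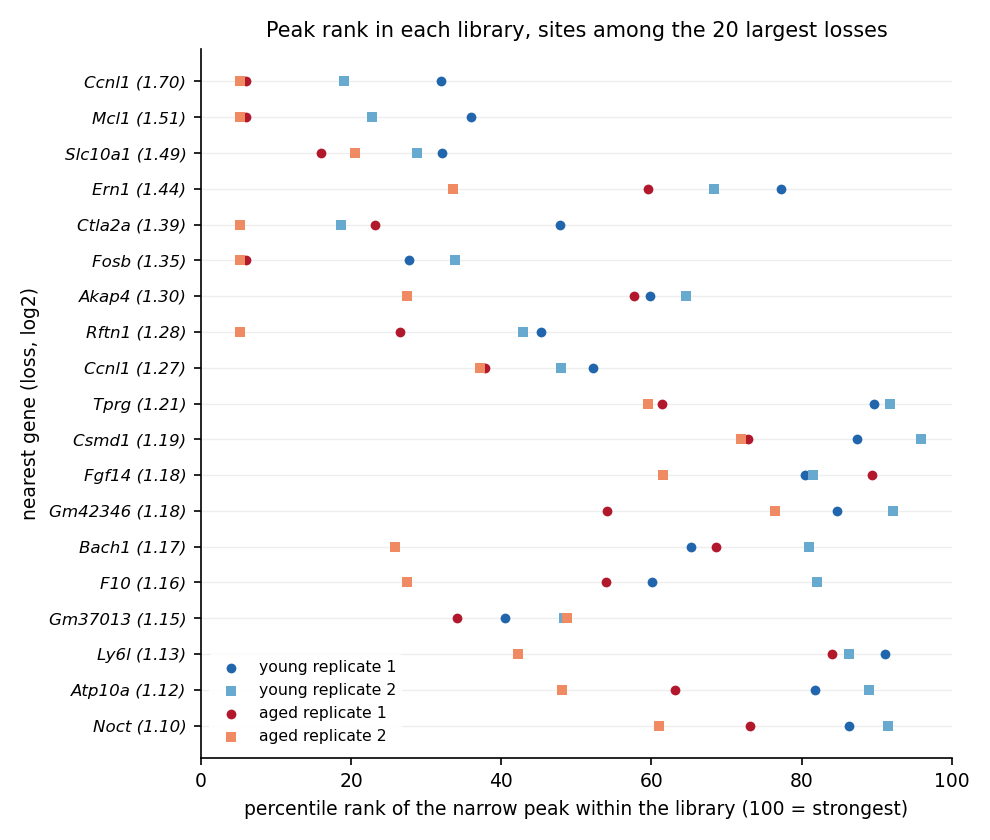
Percentile rank of the narrow peak in each library (horizontal axis, 100 is the strongest of the ranked regions) for members among the 20 largest losses, named by nearest gene with the loss in parentheses. Blue marks are the 2 young and red and orange the 2 aged libraries; the marks at the left edge are libraries without a peak, and sites at Tprg, Csmd1, Atp10a and Noct rank high in young cells.

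The other members among the 20 largest losses were mostly over 1 kb from a gene end, and most ranked higher in young cells. A site 2398 bp outside Ern1 (chr11:106489948-106490440), the gene of the unfolded-protein sensor IRE1, had a loss of 1.44 in the authors' deposited table and ranks of 77.3 and 68.4 in young against 59.5 and 33.5 in aged libraries. A site 65928 bp from Tprg (chr16:25220340-25221438) ranked at 89.7 and 91.7 in young against 61.4 and 59.5 in aged libraries, with a loss of 1.21 in the authors' deposited table. The ages did not overlap at either. At Csmd1, a complement-control protein gene whose nearest end was 371652 bp away, the ranks were 87.4 and 95.9 against 72.9 and 71.9 (loss 1.19 in the authors' deposited table). Sites nearest to Atp10a (a phospholipid-transporting ATPase), Noct (nocturnin, a clock-regulated protein) and Gm42346 had losses of 1.12, 1.10 and 1.18 in the authors' deposited table, each with both young ranks above both aged ranks. At Fgf14 (loss 1.18 in the authors' deposited table) the ranks overlapped, since aged replicate 1 at 89.4 was above both young libraries at 80.5 and 81.5. The sites at Akap4, Rftn1, Bach1, F10, Gm37013 and Ly6l were also among the 20, with losses of 1.13 to 1.30. The Rftn1 site, in the gene of the lipid-raft protein raftlin, was 2877 bp wide and had no peak in aged replicate 2.

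The 582 members had 529 protein-coding genes as their nearest, which is 2.42% of the 21887 genes in the table, while the remaining sites had 17.3% of genes as nearest; 234 genes were nearest to both. A total of 485 genes had 1 member, 36 had 2, 7 had 3, and 1, Gm52481, had 4. The 4 at Gm52481 were all of the listed sites on chromosome Y, in a stretch of repeated genes, and are uncertain. Ccnl1 had its 3 listed sites as members, 5.68, 11.7 and 16.9 kb from the start of a gene 16.1 kb long, with losses of 1.70, 0.90 and 1.27 in the authors' deposited table. The last lay 790 bp beyond the far end.

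At Hlf, which encodes a PAR bZIP transcription factor that marks HSCs, the members were on the 3′ side. They lay 34.9 kb into the gene and 1501 and 4302 bp beyond its far end, with losses of 0.72, 0.90 and 1.08 in the authors' deposited table, while the sites at its start and at -27.1 kb, upstream, had 0.45 and 0.46. The ranks of the outermost Hlf site were 28.5 and 19.2 in young against 23.8 and 10.5 in aged libraries, which overlap. At the middle one, aged replicate 1 ranked at 50.8, above both young libraries at 32.3 and 29.8, against the direction of the level. Loss and rank thus did not go together at each site.

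Bach1, a heme-regulated repressor gene, had members 978 bp upstream of its start and 14.4 and 27.2 kb inside, with losses of 0.70, 0.60 and 1.17 in the authors' deposited table; the site over its start, of a higher level (10.26 in young), had 0.35. Peli2, an E3 ligase gene of Toll-like receptor signalling, had members 10.7 and 81.8 kb inside and 22281 bp beyond its end, with losses of 0.61 to 0.73. Rnf220, an E3 ligase gene, had 3 members 0.496, 12.4 and 19.03 kb from its start, with losses of 0.68, 0.68 and 0.72 in the authors' deposited table. Here the site nearest to the start was a member, while a site 2.23 kb inside had a loss of 0.57. At Ppp2r2b, a regulatory subunit gene of phosphatase 2A, the losses were 0.95, 0.95 and 0.65, and at Tmem121 0.81, 0.70 and 0.91, the first of these at the start printed above. Among genes with 2 members were Sik1, Fosb, Etv6, Il3ra (the interleukin-3 receptor alpha chain), Anxa1 (annexin A1), Rgs2 and the developmental regulators Gsc and Foxb2.

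**Figure D4:**
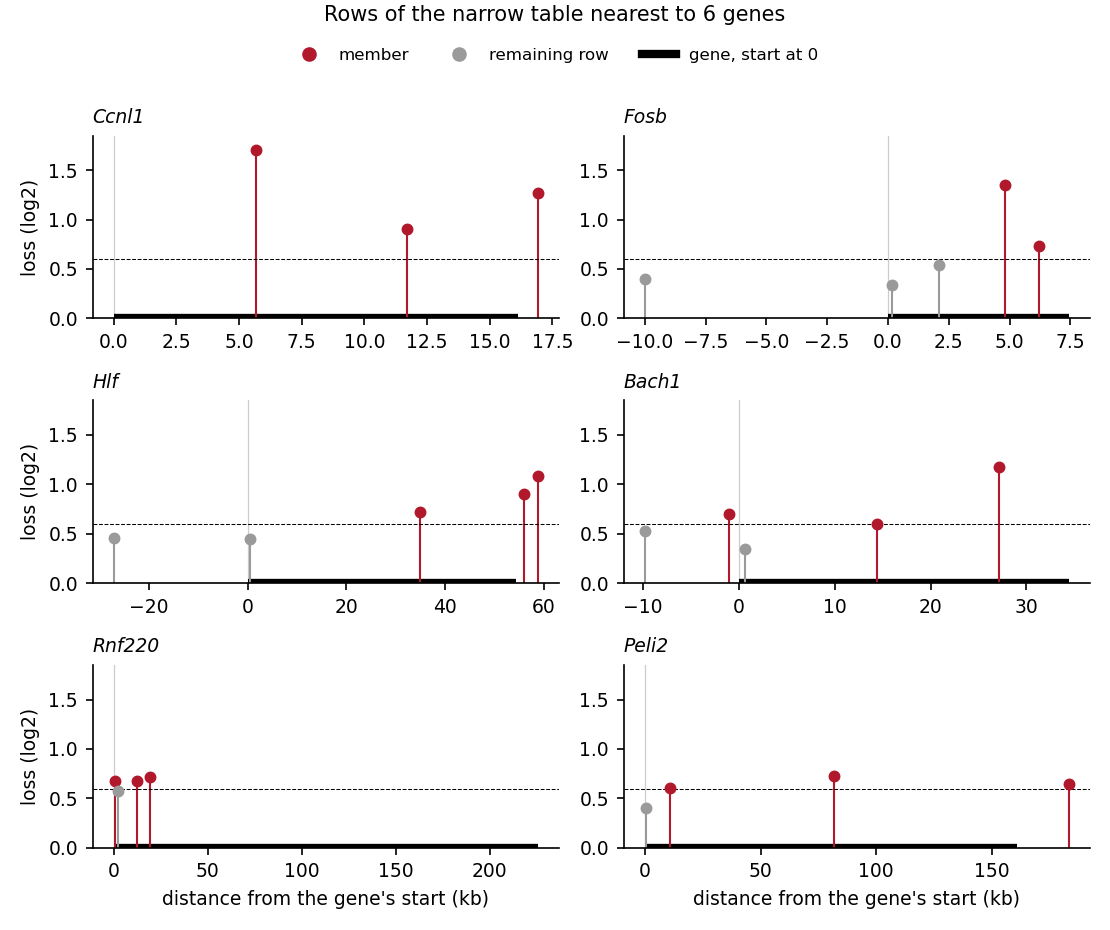
Loss (log2, vertical axis) of every listed site nearest to each of 6 genes against its distance from the gene's start in kb, positive into the gene (horizontal axis); the black bar is the gene, red marks are members and grey marks remaining sites. Sites at the starts of Fosb, Hlf, Bach1 and Peli2 are below the threshold of 0.6, and the members lie inside or beyond these genes, apart from 1 just upstream of Bach1. At Rnf220 a member lies 0.496 kb from the start.

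Of 11 lists of genes, that of HSC transcription factors had the largest share nearest to a member, 6 of 30 genes (20.0%), beside the 2.42% over all genes. Of the 30, 15 (50%) were nearest to a remaining site, beside 17.3% over all genes. Among the 6 were Meis1, Hlf, Etv6, Ikzf1 and Cebpa, all regulators of stem or progenitor cells. Gene length was not taken into account, and no test was run. The Meis1 site (chr11:18924625-18925770) lay inside the gene, 44769 bp from its end, with a loss of 0.64 in the authors' deposited table and ranks of 96.1 and 83.9 in young against 92.5 and 78.7 in aged libraries, which overlap. The sites inside Etv6 (2 members, losses 0.76 and 0.60) and Ikzf1 (0.78) and 20428 bp from Cebpa (0.76) were likewise outside gene starts in the authors' deposited table.

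Counts for the other lists were smaller. Over all genes, 2.42% were nearest to a member and 17.3% to a remaining site. Of 43 AP-1 and immediate early genes, 3 (6.98%) were nearest to a member and 16 (37.2%) to a remaining site. The 3 were Fos, Fosb and Nr4a3, the last 202810 bp away. Of 42 splicing genes, 2 (4.76%) were nearest to a member and 6 (14.3%) to a remaining site. The 2 were Ccnl1 and the SR protein kinase gene Clk1 (loss 0.69 in the authors' deposited table). For the BCL2 family it was 1 of 15 (Mcl1), for NF-kB and cytokine feedback 1 of 31 (Irf2), for HSC receptors 1 of 25 (Flt3, loss 0.61 in the authors' deposited table), and for the circadian clock 2 of 17 (Arntl and Hlf). Of 26 TGF-beta and BMP genes, 3 (11.5%) were nearest to a member and 12 (46.2%) to a remaining site. The 3 were the ligand gene Tgfb2 (0.65), the receptor gene Tgfbr2 (0.61) and the inhibitor gene Id2 (0.63, 158856 bp away), all losses from the authors' deposited table. Chromatin modifiers stood at the background for members, with 1 of 45 (2.22%), while 20 of the 45 (44.4%) were nearest to a remaining site. The 1 was Dnmt3a, the DNA methyltransferase gene recurrently mutated in clonal hematopoiesis. The Dnmt3a site (chr12:3892309-3893506) had a loss of 0.68 in the authors' deposited table, but ranks of 75.3 and 76.2 in young against 79.7 and 76.4 in aged libraries, both aged ones higher. No gene of 24 cyclins, CDK inhibitors and p53 genes was nearest to a member, which in so short a list is near the share over all genes. Of the 24, 9 (37.5%) were nearest to a remaining site.

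Ranks within each library, which come from the same libraries as the rule, were mostly lower in aged cells. The median percentile of the members in replicates 1 and 2 was 81.6 and 82.1 at the young age, against 76.0 and 67.4 at the aged one. The remaining sites stood at 93.0, 93.2, 93.2 and 91.6. The aged mean minus the young mean had a median of -7.63 over the members, against -0.709 over the remaining sites and -0.392 over all ranked regions. It was negative for 515 members and positive for 67. In the lowest level group the medians were -8.48 for members and -3.73 for remaining sites. Among members with a loss of at least 1, the median was -20.5, from 61.2 and 57.0 in young libraries to 43.8 and 35.4 in aged libraries.

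Aged replicate 2 carried more of this than aged replicate 1. It ranked below young replicates 1 and 2 at 84.5% and 85.1% of the members, while aged replicate 1 did so at 72.7% and 71.8%. Over all ranked regions these shares were 48.7% to 51.5%. The remaining sites also differed by replicate, with 61.5% and 63.1% for aged replicate 2 and 48.5% and 50.5% for aged replicate 1. Without aged replicate 2 the difference of members and remaining sites in median rank change was -4.76 percentile points, and without aged replicate 1 it was -9.45, around -6.92 with all libraries. Both young ranks were above both aged ranks at 280 of 582 members (48.1%), beside 18.5% of all ranked regions and 21.7% of the remaining sites, and at 34.0% of the remaining sites in the lowest level group. As the rule used these libraries, nothing is read from these shares. Across the members, loss and rank change had a Spearman correlation of -0.35 and a Pearson correlation of -0.39, a description over sites that share the same 4 libraries.

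**Figure D5:**
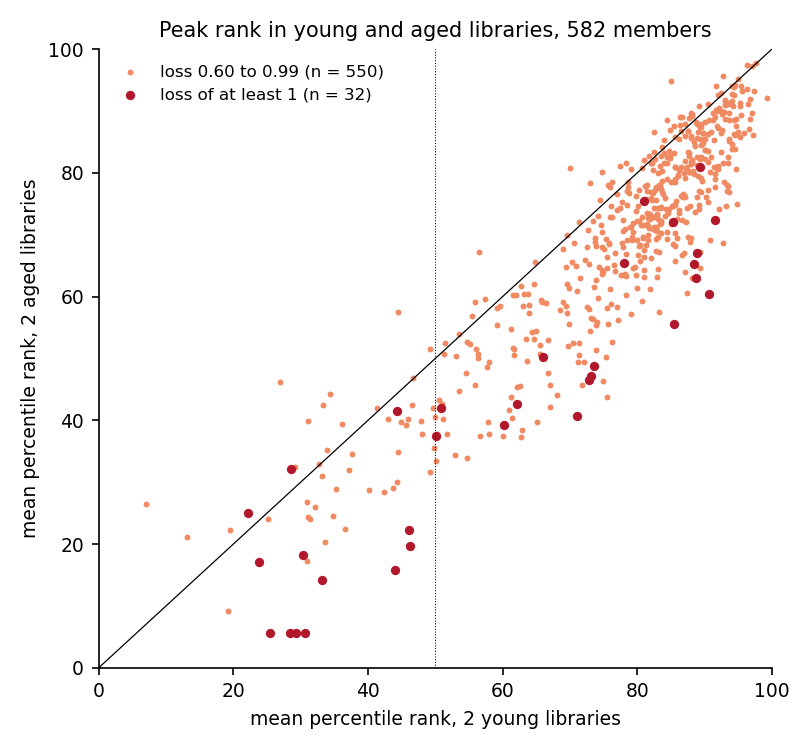
Mean percentile rank in the 2 aged libraries (vertical axis) against that in the 2 young libraries (horizontal axis) for the 582 members, with the 32 sites of a loss of at least 1 in dark red; the solid line marks equal ranks and the dotted line a young rank of 50. Most points are below the line of equal ranks, and 13 of the 32 dark points are left of the dotted line.

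A subset of members ranked low in young cells. With a limit of 50 chosen after the values were seen, 58 members (9.97%) had a mean young percentile below it, against 27 remaining sites (0.621%); within the lowest level group it was 11.0% of members and 3.89% of remaining sites, and among members with a loss of at least 1 it was 13 of 32 (40.6%). These 58 lay close to genes, with a median distance of 2246 bp to a gene end and 44 of them (75.9%) within 5 kb, against 14599 bp and 32.8% for the other 524 members. Besides the sites at Ccnl1, Mcl1, Srsf5, Fosb, Fos, Eef1a1, Sik1, Hlf and Hspa5 described above, they included sites at Zfand5 and Il3ra and at genes of developmental regulators such as Foxa2, Pou3f3, Dlx6, Hand2 and Neurog2. The one nearest to Rab10 lay 10276 bp outside that gene. The other 524 ranked at a median of 83.0 in young and 74.1 in aged libraries.

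In 571 members all 4 libraries had a peak, in 6 members 3 had one, and in 5 members 2 had one. Besides Ccnl1, Mcl1 and Fosb, whose peaks were young only, aged replicate 2 lacked a peak at Ctla2a, Rftn1 and Il3ra, and aged replicate 1 at Anks1. The other cases went against the loss. A second Fosb member, 289 bp wide and the narrowest of all (chr7:19303758-19304046), had no peak in either young library but ranked at 37.4 and 15.5 in the aged ones, although the authors' deposited table gives it a loss of 0.73. At Car2 (carbonic anhydrase 2) young replicate 1 lacked the peak, and both aged libraries had it. In all, 12 members (2.06%) had both aged ranks above both young ranks, among them sites at Dnmt3a, Alx1 and H2ac6 and another site at Anks1. The H2ac6 site, the highest of all members with levels of 10.90 and 10.16 in the authors' deposited table, ranked at 83.2 and 86.7 in young against 91.3 and 98.3 in aged libraries. By contrast, the largest rank drop, -31.7 points, was at a site inside Plekha2, a phosphoinositide-binding adaptor gene, with a loss of 0.70 in the authors' deposited table.

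Members were narrower than the remaining sites, with a median width of 1022 bp (95% interval of the median 978 to 1055) against 1531.5 bp, but close to them within the lowest level group, at 972 and 1045 bp. After the Hspa5 and H2ac6 sites (4029 and 3764 bp), the widest were at Gfra1 (3221 bp), Rftn1 and Mef2c (2858 bp). Members at starts had a median width of 1369.5 bp and those inside and outside genes 969.5 and 954 bp. Other members of high level were at the start of Kcnk12, a potassium channel gene, and on chromosome Y, with mean levels of 9.08 and up to 9.52 in the authors' deposited table. The 5 farthest from a gene end were nearest to Zfp386, Adam6a, Dlg2, Fhit and Kcnj3, at 707239 to 881832 bp. The sites near Zfp386 and Adam6a were both outside genes on chromosome 12, and both ranked at 88.9 or higher in every library.

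Few members were close to each other, but more of them than of the remaining sites had a neighbour. Another member lay within 10 kb of 39 of 582 members (6.70%), and a member lay that near to 75 of 4350 remaining sites (1.72%). Any other listed site lay there for 103 members (17.7%), against 8.78% of the remaining sites. By chromosome, the share of listed sites that were members ranged over the autosomes from 8.94% on chromosome 9 to 16.3% on chromosome 12, with 9.94% on X and 4 of 4 on Y. In the authors' deposited table of broad peaks, from the same libraries, 230 members (39.5%) overlapped a site with a loss, against 17.1% of the remaining sites. In the lowest level group these shares were 31.9% and 5.94%, and among members with a loss of at least 1 it was 24 of 32 (75%).

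The 5 members just inside the threshold, ordered by loss and then FDR, lay nearest to Rtn4rl2, Cep85l, Car2, Lypd6 and Usp6nl. They had a loss of 0.60 and FDR of 0.0461 to 0.0490 in the authors' deposited table. The 5 just outside, among them those nearest to Tnfaip8, Atp2a3, Pla2g4a and Csf2ra, had a loss of 0.59 and FDR of 0.00058 to 0.00525 there. Losses were tied on each side, so the ordering by FDR fixed this gap in FDR. Members nearest to Clba1 and Hells, with a loss of 0.60 too, had FDR of 0.00335 and 0.00529.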

How the data were processed

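ATAC-seq of 2 young and 2 aged LT-HSC libraries was analysed from the files as deposited. Per the submitters' processing notes, the tools were FastQC 0.11.9, BWA 0.7.17, MACS2 2.1.2 and DiffBind 2.14.0, and the build was GRCm38. The authors' deposited table of narrow peaks gives, per the file headers, each site's log2 level per age, log2 fold change, p-value and FDR, up to an FDR of 0.05; how reads were normalised is not given in the sources used here. The deposited narrow peak lists hold the fold enrichment (a ratio) and the −log10 p of each peak, per the file format. They hold no counts, so depth is unknown and no interval on reads can be given.

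The loss was computed as young minus aged level. Sites were placed by their midpoint against 21887 protein-coding genes of the RefSeq GRCm38.p6 table, in which strand and start were at hand for 17492. Location by exon, intron or untranslated region was not analysed here. The 5 listed sites on unplaced sequence have no gene. Peaks of the 4 libraries were merged into 181668 regions, of which 113950 had a peak in at least 2 libraries and were ranked in each library by −log10 p. Intervals are exact binomial (95%). Computations were tested on simulated data and used Python 3.11.15 with numpy 2.4.6, pandas 2.3.3, scipy 1.17.1 and matplotlib 3.10.9.

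No test was run, because the loss chose the sites. Named sites are the 20 largest losses, those at genes nearest to 3 or more members or on the 11 lists (319 genes), those without a peak in a library, the 5 widest, highest and farthest from a gene end, and the 5 on each side of the threshold. Some of these, and 1 list, are not reported here. Other names were chosen after their values were seen. The members and lists were chosen with earlier results of these data known. Alternatives were other thresholds, FDR, distances, level windows, rank measures and libraries left out. The lists of broad peaks were not used beyond the authors' table of broad sites.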

Additional observations from a re-analysis of the deposited data

How the results depend on the processing

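Of 49 alternative values, 49 kept their direction, and 28 stayed within the spread of the value reported. The alternatives that were counts, of members and of genes with 2 or more members, had no direction that could reverse. For these counts the spread was a factor set in advance and not a measured one. Changing the cutoff moved the counts by construction, to 210 members with FDR under 0.01, and to 135, 9 and 1 genes with 2 or more members at a loss of 0.5, 0.8 and 1, against 44; counting only members within 10 kb of a gene gave 15. The gene-end share of members minus that of remaining sites (-43.8 points) was -39.4 at a loss of 0.8, -25.8 at 1, -47.2 with FDR under 0.01, -39.6 for a shorter gene-end distance, -37.2 for 5000 bp, -14.7 among remaining sites in the members' window of level and -5.66 in the lowest of 5 level groups, an alternative chosen after seeing the data. The difference in median width (-509.5 bp) was -396 at a loss of 1, -673.5 with FDR under 0.01, -139.5 in the window of level and -73 in that lowest group. The difference in median level (-1.48) was -1.30, -1.52 and -1.56 at a loss of 0.5, at 0.8 and with FDR under 0.01. The difference in median rank change (-6.92 points) was -11.9 and -19.4 at a loss of 0.8 and 1, and -9.45 to -4.76 when 1 library was left out. It was -3.78 when ranked among listed sites only. For the other changes the cause was not tested. No paired analysis was possible because the deposited table holds no values per library and no test was run. With no counts, how depth limits these levels is unknown.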

Other observations

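Genes of developmental transcription factors, which pattern the embryo and are not known as blood regulators for the most part, were among those nearest to members. Of 244 genes in such families, taken by symbol after values had been seen, 22 (9.02%) were nearest to a member, among them Gsc, Foxa2, Foxb2, Hand2, Neurog2, Dlx6, Nkx3-2, Zic2 and Tbx15, and 45 (18.4%) were nearest to a remaining site. Over all protein-coding genes these shares were 2.42% and 17.3%. Of the members, 18 (3.09%) lay in or within 5 kb of a gene of these families, against 43 remaining sites (0.989%). In the lowest level group these shares were 3.21% and 2.25%. None of the 32 members with a loss of at least 1 was among them. At Gsc the members covered the start and the far end, with losses of 0.71 and 0.78 in the authors' deposited table. Several peaks at these genes were low in rank: the Hand2 site stood at 44.1 and 23.2 in young against 14.8 and 25.8 in aged libraries, the Foxa2 site at 47.6 and 38.3 against 42.8 and 37.6. At Alx1 both aged libraries ranked higher, at 54.3 and 38.2 against 36.3 and 17.6.

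Further sites, chosen after their values were seen, were at Il3ra and Anxa1, the genes of an interleukin-3 receptor chain and of annexin A1. Il3ra had members at 1748 and 3825 bp from its nearest end, with losses of 0.73 and 0.65 in the authors' deposited table. The first lacked a peak in aged replicate 2 and ranked at 32.1, 29.9 and 29.3 in the other libraries, while the second overlapped between ages, at 61.0 and 68.2 in young against 53.5 and 70.7 in aged libraries. The member at the start of Anxa1, 593 bp from it, ranked at 74.0 and 79.5 against 68.0 and 60.3, without overlap.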
